A study of Arabidopsis thaliana with 18 samples.

Results

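Expansins are small secreted proteins that let plant cell walls creep under turgor without cutting their polymers, and the 33 genes of the superfamily described here are the Arabidopsis thaliana expansins other than EXPA7 and EXPA18, the pair known from root hair outgrowth. They were taken by gene identifier and comprise 23 α-expansins (EXPA), 6 β-expansins (EXPB), 3 expansin-like A genes (EXLA) and 1 expansin-like B gene (EXLB), out of 24532 genes in the table. α-Expansins are the classical acid growth factors. Proton pumps of the plasma membrane lower the pH of the wall, expansins become active, and the wall yields. β-Expansins are best known from grasses, where a group of them acts in pollen, and the expansin-like proteins share the same pair of domains although no wall-loosening activity has been established for them. In roots, expansins are known from cell elongation behind the tip, from root hairs and from the separation of cells above an emerging lateral root.

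Root RNA was sequenced in 6 groups, formed by WT, C4 and B2 plants given 0 or 150 mM NaCl. C4 and B2 are transgenic lines, each 1 transformed line, that carry an isoprene synthase gene of Eucalyptus globulus behind the promoter of RBCS1A, a gene of the photosynthetic enzyme Rubisco, and isoprene is a volatile that Arabidopsis does not make by nature. The labels call the controls WT, while their protocols also speak of an empty vector line, and how old the plants of the 150 mM libraries were and how long they were treated is not stated in the labels. There were 3 libraries in each group except WT at 150 mM, which had 2. A further column, WT 0 mM library 2, equalled library 1 in 24515 of 24532 genes, a difference below the sampling noise, and both were counted as 1 sample. The 17 libraries used held 54233853 to 91527683 counts. Whether each library had plants of its own is not stated, and p-values then cover the spread between libraries only, which may be technical. RD29A, a salt and drought marker, lay between 27.5 and 117 CPM (counts scaled to library size) at 0 mM and between 879 and 3177 CPM at 150 mM. Of 6 root tissue markers all were detected in every library, and the β-glucosidase gene BGLU23 alone reached 6740 to 13500 CPM. In 2 libraries the genes ANNAT3 or MRD1 went against the label. The library labelled WT 150 mM 2 held 33.4 CPM of MRD1, against 0.0965 to 2.06 CPM in the other WT libraries and 32.75 to 44.0 CPM in C4, and 76 CPM of ANNAT3. The library labelled B2 0 mM 3 held 96.8 CPM of ANNAT3, against 0.458 to 1.36 CPM in the other B2 libraries. Its MRD1 was at 0.0499 CPM, against 36.3 to 43.1 CPM in those. Which genotype these 2 libraries hold was not tested. Counts of calls are therefore given with and without this pair.

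Of the 33 genes, 32 were in the table and EXPB6 was not analysed here. 23 passed the filter on low counts and were tested, and 20 of these averaged 1 CPM or more. A gene that is high in 1 condition only can pass this filter through that condition. The 9 others lay at or near 0. EXPA21 to EXPA26, a cluster of 6 genes on chromosome 5, and the β-expansins EXPB4 and EXPB5 had 0 counts in all 17 libraries, where 3 counts would have equalled 0.0322 to 0.0531 CPM. EXPA22 and EXPA26 share 97.74% of their aligned coding bases and EXPA23 and EXPA25 share 97.46%, and reads that fit more than 1 gene were not counted, so the zeros of these 4 are uncertain. EXPA2, known from seed germination, had 14 counts in all, in 1 C4 and 2 B2 libraries at 150 mM.

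The genomic sequence before the gene is printed here for some of the genes with large responses to salt, and whether it has a part in them was not tested. Each run is the 250 bases before the gene's start, read 5′ to 3′ on the gene's strand from the RefSeq genome TAIR10.1, and capitals mark ACGTG or its reverse complement, the core of the abscisic acid response element (ABRE). EXPA16 (AT3G55500) had the largest rise. EXLA3 (AT3G45960) and EXLA1 (AT3G45970) are neighbours in the same orientation, 2012 bases apart, and both rose. EXPA15 (AT2G03090) fell.
EXPA16, chr3:20576250-20576499, minus strand: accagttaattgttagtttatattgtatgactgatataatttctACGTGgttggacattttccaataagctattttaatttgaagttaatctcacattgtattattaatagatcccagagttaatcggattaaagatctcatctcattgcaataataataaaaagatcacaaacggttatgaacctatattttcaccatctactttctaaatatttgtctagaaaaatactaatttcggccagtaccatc
EXLA3, chr3:16892452-16892701, plus strand: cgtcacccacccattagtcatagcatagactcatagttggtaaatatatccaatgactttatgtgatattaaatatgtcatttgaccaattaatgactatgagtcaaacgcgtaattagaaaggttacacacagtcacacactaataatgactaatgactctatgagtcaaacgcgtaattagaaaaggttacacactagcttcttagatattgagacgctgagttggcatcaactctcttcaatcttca
EXLA1, chr3:16895916-16896165, plus strand: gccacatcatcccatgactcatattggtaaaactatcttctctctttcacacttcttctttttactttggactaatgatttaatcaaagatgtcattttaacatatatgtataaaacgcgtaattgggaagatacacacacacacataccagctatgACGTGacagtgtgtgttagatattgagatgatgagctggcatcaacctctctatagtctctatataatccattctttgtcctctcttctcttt
EXPA15, chr2:918672-918921, minus strand: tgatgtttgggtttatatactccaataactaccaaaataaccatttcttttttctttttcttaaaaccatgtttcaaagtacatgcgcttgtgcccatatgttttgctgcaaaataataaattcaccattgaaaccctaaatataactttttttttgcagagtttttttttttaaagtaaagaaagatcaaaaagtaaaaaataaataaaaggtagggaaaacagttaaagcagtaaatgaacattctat
EXPA16 held 1 ABRE core, 206 bases before its start, and EXLA1 held 1 at 93 bases, while these letters were not found in the runs of EXLA3 and EXPA15. The neighbours EXLA1 and EXLA3 share the run AAACGCGTAATT, which begins 137 bases before the start of EXLA1 and both 145 and 81 bases before the start of EXLA3. They also share TTAGATATTGAGA, 78 and 46 bases before their starts. On either strand, the first run was present in 5 of 24527 windows of this length, one for each gene, or 0.02%, and the second in 4, or 0.016%. An ABRE core was present in 23.6% of all windows and in those of 6 of the 32 genes. These were EXPA3, EXPA6, EXPA16, EXPB2, EXLA1 and EXLA2, so that the core was held by 4 of the 10 genes that rose under salt over the 3 genotypes together and by 1 of the 7 that fell. The G-box CACGTG, which overlaps the ABRE core, was in 6.93% of all windows and in 1 of the 32. The core of the dehydration response element (ACCGAC or GCCGAC) was in 7.34% of all windows and in 2 of the 32, and the auxin response element (TGTCTC or TGTCGG) in 14.6% and in 5. A match is a description of these letters and not a shown binding site.

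Summed over the 32 genes, expansin RNA made up 622 to 874 CPM in the libraries at 0 mM and 582 to 767.5 CPM at 150 mM, so that both ranges overlapped widely. What differed was the make-up. β-Expansins held 21.5% ± 3.9 (SD, n = 3) of the summed CPM in WT at 0 mM and 11.3% ± 1.3 (SD, n = 2) at 150 mM. In C4 the β-expansin share was 22.8% ± 1.7 and 12.98% ± 1.4, and in B2 it was 20.4% ± 1.3 and 12.7% ± 2.8 (SD, n = 3 each). The EXLA share was 3.16% ± 0.77 in WT and 2.75% ± 0.22 in C4, with 2.94% ± 0.54 in B2 at 0 mM, and 10.3% ± 2.5, 7.10% ± 1.8 and 6.20% ± 1.7 at 150 mM. EXLB1 alone held 6.13% ± 3.6, 5.33% ± 1.8 and 5.54% ± 0.80 at 0 mM and 11.8% ± 0.035, 12.6% ± 0.81 and 11.3% ± 2.6 at 150 mM, in the same order. The α-expansins made up 65.0% to 72.8% of the sum in every library. These sums are in CPM without a correction for length, and shares of bulk RNA cannot tell fewer cells of a type from less RNA per cell.

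**Figure D1:**
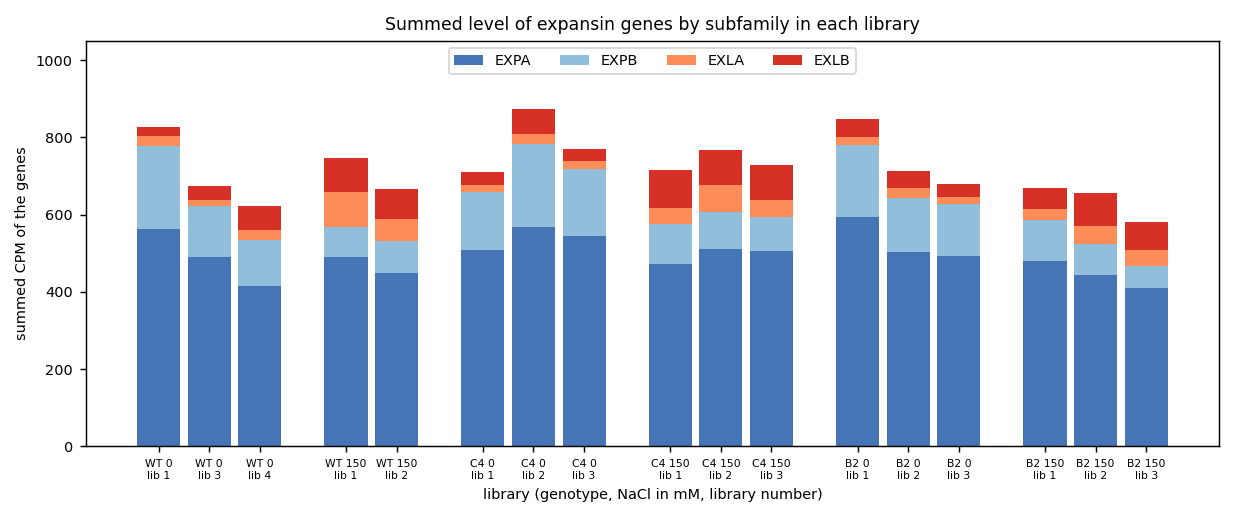
Stacked bars give the summed CPM of EXPA, EXPB, EXLA and EXLB genes in each of the 17 libraries, grouped by genotype and NaCl. The total lies between 582 and 874 CPM, the EXPB part is smaller at 150 mM and the EXLA and EXLB parts are larger.

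Per kilobase of the deposited gene length, the α-expansins EXPA4 and EXPA15 were the most abundant genes. Their means over the 6 group means were 73.7 and 60.5 CPM per kilobase, and the values that follow were formed likewise. EXLB1 followed with 55.5, the β-expansin EXPB3 with 51.1, EXPA1 with 43.7 and EXPA9 with 43.0 CPM per kilobase. At the other end, EXPA5, a gene known for brassinosteroid-dependent growth, had 0.0423 CPM per kilobase. EXPA12 and EXPB2 had 0.464 and 0.380 CPM per kilobase. The order of the leading genes was not the same in both conditions. At 0 mM EXPA4, EXPA15 and EXPB3 were the 3 highest genes in each genotype, at 62.8 to 101.5 CPM per kilobase for these group means, and EXLB1 stood at 36.8 to 38.2. At 150 mM EXLB1 stood at 63.7 to 82.7 CPM per kilobase and was the highest of the family in each genotype.

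**Figure D2:**
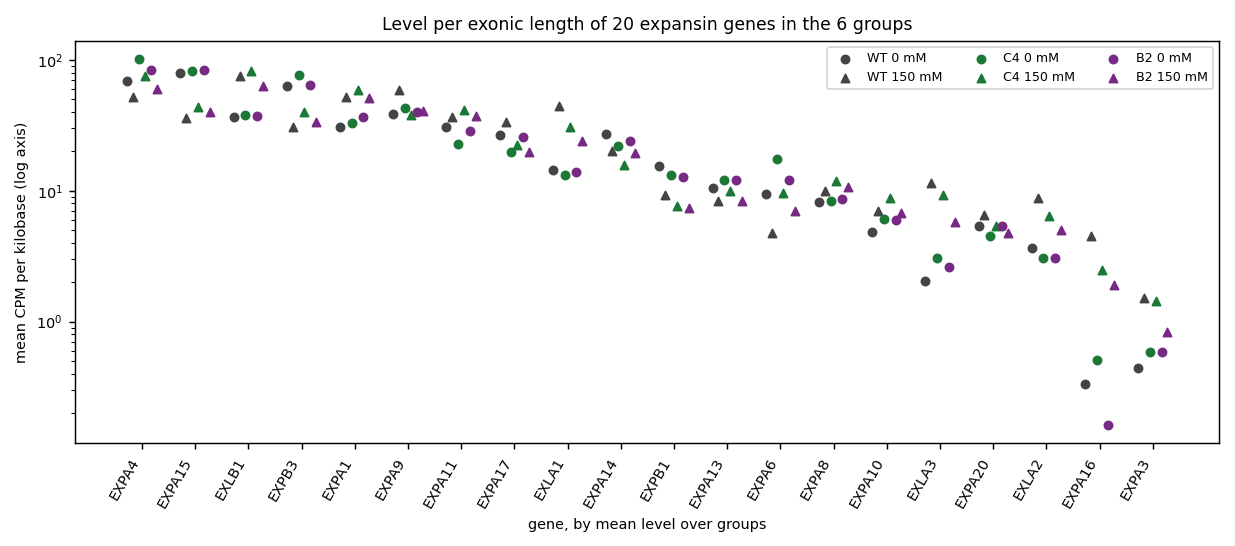
Points give the mean CPM per kilobase of exonic length (log axis) of the 20 genes that averaged 1 CPM or more, in each of the 6 groups, with circles for 0 mM and triangles for 150 mM. EXPA4 and EXPA15 lead at 0 mM and EXLB1 at 150 mM, and EXPA16 and EXPA3 lie lowest.

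Salt changed the family in both directions. In the mean of the 3 genotypes, 10 of the 23 tested genes rose and 7 fell (edgeR's quasi-likelihood test, Benjamini-Hochberg adjusted p under 0.05 over 21367 genes), where 21.5% of all tested genes rose and 20.5% fell. All 3 EXLA genes, EXLB1 and 6 of 16 EXPA genes rose. 2 of 3 EXPB genes and 5 of 16 EXPA genes fell. The median log2 fold change of the 23 genes was 0.16 and that of all genes -0.01, while the median size of the change without its sign was 0.70 for the family and 0.26 for all genes. Without both libraries that went against their labels, 10 rose and 6 fell, EXPA14 being the call lost. 14 of the 17 calls were made with each library left out in turn. EXPA10 missed the threshold without WT 150 mM library 1 (log2 fold change 0.38, adjusted p = 0.0548) and EXPA14 without the library labelled WT 150 mM 2 (-0.39, adjusted p = 0.0503), and EXPA4 missed it in 12 of the 17 omissions, with values between -0.53 and -0.34 over all of them.

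**Figure D3:**
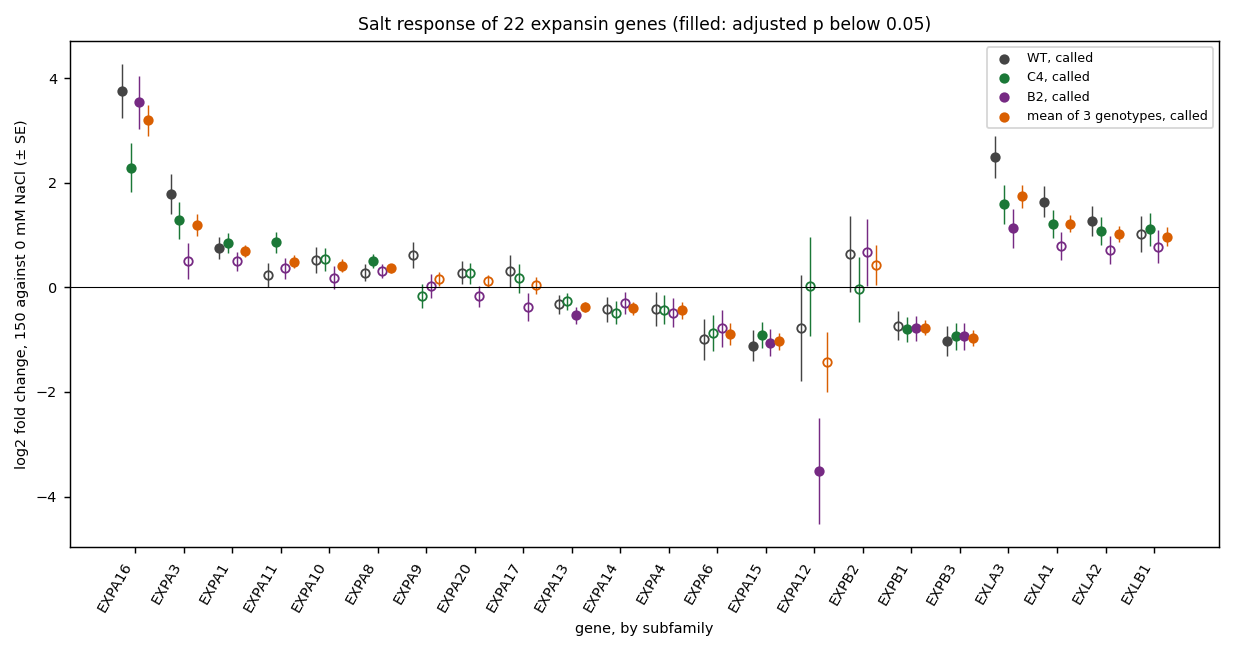
Points give the log2 fold change at 150 against 0 mM NaCl with its SE for 22 tested genes, ordered by subfamily, in WT, C4, B2 and the mean of the 3 genotypes, and filled points passed an adjusted p of 0.05. EXPA5 is left out of the plot because its levels were at most 0.177 CPM. EXPA16 and the EXLA genes lie above 0 and EXPA15, EXPB1 and EXPB3 below 0 in each genotype.

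Among the α-expansins, EXPA16 stood apart by the size of its rise. At 0 mM it was barely detected, at 0.496, 0.225 and 0.540 CPM in WT, 0.389, 0.721 and 0.799 CPM in C4, and 0.206, 0.330 and 0.0748 CPM in B2. At 150 mM it stood at 8.31 and 3.01 CPM in WT, 3.36, 3.25 and 2.75 CPM in C4, and 2.32, 2.98 and 1.85 CPM in B2. Every library at 150 mM lay above every library at 0 mM. The log2 fold change was 3.76 ± 0.52 (SE) in WT and 2.29 ± 0.47 in C4, with 3.54 ± 0.51 in B2, with edgeR adjusted p of 0.000982, 0.00582 and 0.00181. In the mean of the genotypes it was 3.19 ± 0.29, or 9.15-fold (adjusted p = 2.29e-06). EXPA16 was called in each genotype with each of the 17 libraries left out. Its nearest relative in the coding sequence is EXPA4, at 81.14% of the aligned bases, and EXPA4 was lower at 150 mM in that mean, by -0.44 ± 0.17 (adjusted p = 0.0474).

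EXPA3 (AT2G37640), whose overexpression has been linked to salt sensitivity, had the second largest rise of the α-expansins. Its level at 0 mM was 0.697, 0.847 and 0.809 CPM in WT, 1.28, 0.998 and 0.860 CPM in C4, and 1.26, 1.10 and 0.786 CPM in B2. Under 150 mM it was 3.83 and 1.62 CPM in WT, 2.05, 3.28 and 2.30 CPM in C4, and 1.35, 1.99 and 1.10 CPM in B2. The groups were apart in WT and C4 and overlapped in B2. EdgeR gave 1.79 ± 0.38 in WT and 1.28 ± 0.35 in C4 (adjusted p = 0.00626 and 0.0259), and 0.50 ± 0.35 in B2, which did not pass (adjusted p = 0.336). Over the genotypes EXPA3 rose by 1.19 ± 0.21 on the log2 scale (adjusted p = 0.000306).

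EXPA1 (AT1G69530), known from guard cells and from the founder cells of lateral roots, was among the abundant genes and rose by less. It was at 38.3, 39.8 and 64.6 CPM in WT, 54.5, 47.1 and 50.3 CPM in C4, and 63.0, 63.6 and 42.3 CPM in B2 without salt. With salt it was at 85.5 and 75.5 CPM in WT, 94.2, 84.8 and 93.8 CPM in C4, and 67.4, 87.1 and 83.75 CPM in B2. No library at 150 mM fell below 67.4 CPM and none at 0 mM exceeded 64.6 CPM. The log2 fold change was 0.76 ± 0.21 in WT and 0.84 ± 0.19 in C4, with 0.50 ± 0.19 in B2 (edgeR adjusted p = 0.0206, 0.00921 and 0.0794), and 0.70 ± 0.11 over the genotypes (adjusted p = 0.000156).

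3 further α-expansins rose over the genotypes with smaller changes. EXPA8 (AT2G40610) was at 10.1 to 12.0 CPM in the 9 libraries without salt, and at 14.0 and 12.5 CPM in WT, 13.6, 17.3 and 15.9 CPM in C4, and 11.8, 16.7 and 14.3 CPM in B2 with it. EXPA11 (AT1G20190) stood at 35.3, 49.3 and 39.4 CPM in WT, 26.3, 26.5 and 38.3 CPM in C4, and 32.99, 35.2 and 47.3 CPM in B2 at 0 mM. Its values at 150 mM were 53.5 and 43.9 CPM in WT, 41.6, 68.8 and 55.3 CPM in C4, and 43.2, 56.0 and 50.0 CPM in B2. In C4, where the groups were apart for both genes, EXPA8 rose by 0.51 ± 0.14 (adjusted p = 0.0259) and EXPA11 by 0.86 ± 0.20 (adjusted p = 0.0126) on the log2 scale. Over the genotypes EXPA8 rose by 0.37 ± 0.083 and EXPA11 by 0.49 ± 0.12 (edgeR adjusted p = 0.00224 and 0.0043). EXPA10, known from leaf growth, ranged from 5.96 to 15.9 CPM over all libraries and rose by 0.42 ± 0.13 over the genotypes (adjusted p = 0.0182), without a call in any 1 genotype.

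EXPA15 was the abundant α-expansin with the clearest fall. At 0 mM it was at 167, 98.65 and 72.6 CPM in WT, 103, 125 and 123 CPM in C4, and 144, 109.7 and 105 CPM in B2. At 150 mM the values were 48.9 and 55.0 CPM in WT, 64.95, 58.4 and 63.2 CPM in C4, and 79.0, 48.2 and 44.5 CPM in B2. The groups did not overlap within any genotype. The log2 fold change was -1.12 ± 0.30 in WT and -0.91 ± 0.26 in C4, with -1.06 ± 0.26 in B2 (edgeR adjusted p = 0.0191, 0.0324 and 0.0146), and -1.03 ± 0.16 over the genotypes (adjusted p = 0.000123). Its change in WT without both libraries that went against their labels was -1.20 ± 0.41 and was not called (adjusted p = 0.0634). WT at 0 mM spread widely for EXPA15, with its library 1 highest at 167 CPM.

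The other falls among the α-expansins were smaller or rested on fewer values. EXPA6 (AT2G28950) ranged from 10.4 to 35.9 CPM at 0 mM and from 5.32 to 15.35 CPM at 150 mM and fell by 0.89 ± 0.21 on the log2 scale over the genotypes (edgeR adjusted p = 0.00381), with no call in a single genotype (adjusted p = 0.103 in WT, 0.117 in C4 and 0.130 in B2). EXPA6 was called in each genotype without both libraries that went against their labels, at -1.49 ± 0.41 in WT, -0.88 ± 0.26 in C4 and -1.10 ± 0.29 in B2 (adjusted p = 0.0259, 0.0449 and 0.0414), and DESeq2 called it in WT with all 17 (-1.001 ± 0.37, adjusted p = 0.0379). EXPA13 (AT3G03220) stood at 17.5, 15.0 and 12.8 CPM in WT, 16.5, 18.9 and 16.7 CPM in C4, and 18.6, 15.1 and 18.5 CPM in B2 at 0 mM. At 150 mM it stood at 13.6 and 10.6 CPM in WT, 15.6, 13.5 and 14.3 CPM in C4, and 14.9, 10.6 and 10.6 CPM in B2. EXPA13 fell in B2 by 0.53 ± 0.16 (adjusted p = 0.0354) and over the genotypes by 0.37 ± 0.097 (adjusted p = 0.00613). Without both libraries that went against their labels its change in B2 was -0.50 ± 0.18 (adjusted p = 0.0974). EXPA12 (AT3G15370) was called in B2 at -3.52 ± 1.0 (adjusted p = 0.0293). Its B2 values were 3.03, 0.220 and 0.561 CPM at 0 mM and 0.225, 0 and 0.0947 CPM at 150 mM, against 0.144 to 1.005 CPM in the 11 WT and C4 libraries. The call was not made without B2 0 mM library 1, which held the highest value, nor without library 2 or 3 at 150 mM.

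EXPA14 and EXPA17 are both known as targets of the lateral root regulator LBD18. EXPA14 ranged from 32.6 to 57.0 CPM at 0 mM and from 24.5 to 42.3 CPM at 150 mM and fell by 0.40 ± 0.13 over the genotypes (edgeR adjusted p = 0.0215), a call that was not made without both libraries that went against their labels (-0.30 ± 0.13, adjusted p = 0.0829). EXPA17 (AT4G01630) ranged from 19.65 to 41.6 CPM and from 17.4 to 42.0 CPM, with a change of 0.04 ± 0.16 (adjusted p = 0.875). The difference between both genes was not tested. The spread of EXPA17 lay between libraries of the same group. WT 0 mM library 3, WT 150 mM library 1 and the library labelled B2 0 mM 3 held 40.9, 42.0 and 41.6 CPM, and the 14 others 17.4 to 31.3 CPM. LBD16, LBD18 and LBD29, which act in lateral root formation, had no called change. Of the remaining α-expansins, EXPA9 (37.8 to 92.7 CPM over all libraries) and EXPA20 (4.80 to 9.40 CPM) changed by 0.16 ± 0.13 and 0.13 ± 0.12 over the genotypes, and neither passed (adjusted p = 0.365 and 0.422).

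The pair of abundant β-expansins fell together. EXPB3 (AT4G28250) was at 188, 108 and 98.1 CPM in WT, 132, 195 and 149.6 CPM in C4, and 169.8, 124 and 107 CPM in B2 at 0 mM. It stood at 61.4 and 67.8 CPM in WT, 90.5, 83.9 and 74.95 CPM in C4, and 88.8, 71.2 and 49.5 CPM in B2 at 150 mM. Each library with salt lay below each library without it. The log2 fold change was -1.02 ± 0.29 in WT and -0.93 ± 0.26 in C4, with -0.93 ± 0.26 in B2 (edgeR adjusted p = 0.0271, 0.0271 and 0.0242), and -0.96 ± 0.16 over the genotypes (adjusted p = 0.000186). The change of EXPB3 in WT without both libraries that went against their labels was -1.09 ± 0.39 and was not called (adjusted p = 0.0765). EXPB1 (AT2G20750), the closest relative of EXPB3 with 78.44% of the aligned coding bases equal, was less abundant. Its values at 0 mM were 26.8, 24.5 and 19.6 CPM in WT, 18.1, 19.3 and 23.5 CPM in C4, and 15.9, 16.3 and 26.3 CPM in B2. With salt they were 15.6 and 12.9 CPM in WT, 13.1, 9.86 and 12.0 CPM in C4, and 16.4, 8.72 and 8.88 CPM in B2. The changes were -0.73 ± 0.28 in WT and -0.80 ± 0.24 in C4, with -0.78 ± 0.24 in B2, and those in C4 and B2 passed (adjusted p = 0.0811, 0.0426 and 0.0401). EXPB1 overlapped in B2, where library 1 at 150 mM lay above libraries 1 and 2 at 0 mM, and without both libraries that went against their labels its change there was -0.52 ± 0.24 (adjusted p = 0.183). EXPB2 stayed between 0.118 and 1.11 CPM, with a change of 0.43 ± 0.38 over the genotypes (adjusted p = 0.391).

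All 3 EXLA genes rose, in the order EXLA3, EXLA1 and EXLA2 by size in the mean of the genotypes. They share 82.83% to 86.62% of their aligned coding bases. EXLA3 was at 2.17, 1.81 and 4.425 CPM in WT, 3.14, 5.29 and 4.25 CPM in C4, and 4.46, 3.90 and 2.42 CPM in B2 at 0 mM. At 150 mM EXLA3 was at 21.3 and 10.2 CPM in WT, 8.90, 17.3 and 12.1 CPM in C4, and 6.07, 8.43 and 9.09 CPM in B2. No library at 150 mM reached down to the level of a library at 0 mM. The log2 fold change was 2.49 ± 0.41 in WT and 1.59 ± 0.37 in C4, with 1.13 ± 0.37 in B2 (edgeR adjusted p = 0.00185, 0.0127 and 0.0499), and 1.74 ± 0.22 over the genotypes (adjusted p = 2.92e-05). The call in B2 lay at the threshold and was lost with any of 10 of the 17 libraries left out, and without both libraries that went against their labels (0.90 ± 0.37, adjusted p = 0.146).

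Its neighbour EXLA1 was the most abundant of the 3, also per kilobase. EXLA1 stood at 18.9, 11.75 and 15.05 CPM in WT, 12.6, 17.6 and 11.8 CPM in C4, and 12.9, 18.7 and 12.7 CPM in B2 without salt. With salt it stood at 56.0 and 38.9 CPM in WT, 26.3, 43.6 and 27.7 CPM in C4, and 18.1, 33.3 and 25.5 CPM in B2. The groups were apart in WT and C4, and in B2 library 1 with salt lay below library 2 without it. EXLA1 rose by 1.64 ± 0.29 in WT and 1.22 ± 0.27 in C4 on the log2 scale (edgeR adjusted p = 0.00282 and 0.00957), with 0.79 ± 0.27 in B2 (adjusted p = 0.055), and by 1.22 ± 0.16 over the genotypes (adjusted p = 3.74e-05). EXLA2 (AT4G38400), whose loss has been linked to altered resistance to necrotrophic fungi, lies on chromosome 4. It was at 3.50, 3.39 and 5.48 CPM in WT, 3.36, 3.205 and 3.785 CPM in C4, and 3.79, 2.64 and 3.89 CPM in B2 at 0 mM. It reached 12.4 and 7.39 CPM in WT, 6.81, 9.13 and 5.86 CPM in C4, and 4.06, 6.60 and 6.34 CPM in B2 at 150 mM. Within each genotype EXLA2 was higher in every library with salt. Its log2 fold change was 1.27 ± 0.29 in WT and 1.08 ± 0.27 in C4, with 0.72 ± 0.27 in B2 (adjusted p = 0.00911, 0.0165 and 0.0756), and 1.02 ± 0.16 over the genotypes (adjusted p = 0.000123).

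EXLB1 (AT4G17030), the only gene of its subfamily, rose over the genotypes. Its values were 24.8, 36.1 and 62.4 CPM in WT, 31.9, 64.5 and 31.6 CPM in C4, and 46.1, 45.5 and 32.5 CPM in B2 at 0 mM. Under salt they were 88.3 and 78.5 CPM in WT, 96.4, 91.7 and 89.2 CPM in C4, and 55.3, 85.3 and 72.8 CPM in B2. The groups were apart within each genotype. The log2 fold change was 1.02 ± 0.34 in WT and 1.11 ± 0.31 in C4, with 0.78 ± 0.31 in B2, of which that in C4 passed (edgeR adjusted p = 0.0548, 0.0333 and 0.0987), and 0.97 ± 0.19 over the genotypes (adjusted p = 0.000846). Markers of green tissue overlapped between the conditions over all libraries and within C4, and were apart within WT and within B2. 6 photosynthesis genes summed to 75.65 to 206 CPM at 0 mM and to 155 to 278 CPM at 150 mM. The highest sum at 0 mM and the lowest at 150 mM were 206 and 219 CPM in WT, 191 and 181 CPM in C4, and 139 and 155 CPM in B2. Of these genes 3 rose over the genotypes, 0 fell and none of the 6 was at 0 throughout. WT library 4 and C4 library 2, the libraries with the highest EXLB1 at 0 mM, also had the highest sums of these markers there, 206 and 191 CPM, and B2 library 1, the lowest in EXLB1 at 150 mM, had the lowest sum, 155 CPM. The orders differed elsewhere. The 3 C4 libraries at 150 mM, the highest in EXLB1, had sums of 181 to 202 CPM, below WT 0 mM library 4, and the highest sum, 278 CPM, was in the library labelled WT 150 mM 2. By edgeR, 2 of the 6 markers rose in WT, 0 in C4, where EXLB1 was called, and 0 in B2. Their median log2 fold changes were 1.03, 0.41 and 0.99 in the same order. The part of green tissue in this and the other changes was not tested.

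**Figure D4:**
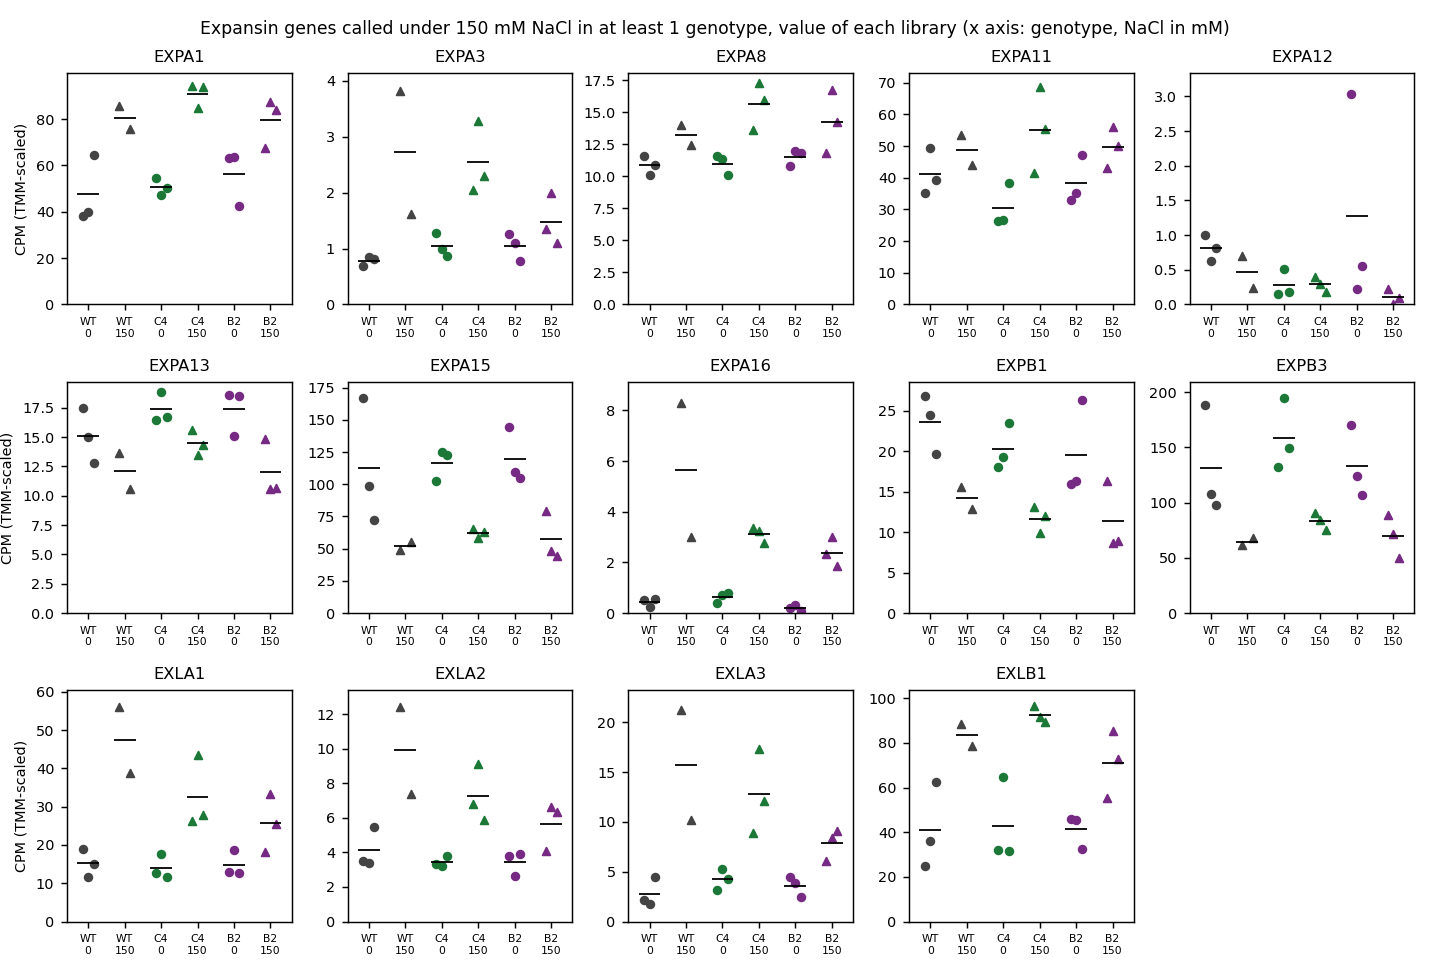
Each panel gives the CPM of 1 of the 14 genes called in at least 1 genotype, with a point for each library, a line at the group mean, circles for 0 mM and triangles for 150 mM. The 150 mM libraries of EXPA16, EXPA1 and EXLA3 all lie above the 0 mM libraries, those of EXPB3 all lie below, and EXPA12 shows 1 high library of B2 at 0 mM.

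Within single genotypes fewer calls were made and they depended on single libraries. In WT 6 genes rose and 2 fell, where 9.29% of all tested genes rose and 7.35% fell. C4 had 9 rises and 3 falls (6.69% and 5.44% of all genes), and B2 had 2 rises and 5 falls (9.61% and 6.63%). Without both libraries that went against their labels, the counts were 6 and 1 in WT, 9 and 4 in C4, and 1 and 4 in B2. In B2 the calls over all tested genes were then fewer too, and WT at 150 mM held 1 library. In the full set, EXPA16 and EXLA3 rose and EXPA15 and EXPB3 fell in all 3 genotypes. These were 4 of 23 genes or 17.4%, against 6.32% of all tested genes called in all 3 in either direction with the same sign. With both of those libraries left out, EXPA16 was the only one of these 4 still called in all 3 genotypes. EXPA15 and EXPB3 were then lost in WT and EXLA3 in B2, and EXPA6 was called as lower in all 3. With all 17 libraries, EXPA1, EXPA3, EXLA1 and EXLA2 were called in WT and C4, EXPB1 in C4 and B2, EXPA8, EXPA11 and EXLB1 in C4, and EXPA12 and EXPA13 in B2. A call in 1 genotype and not in another is no test of a difference.

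Leaving out each library of a genotype moved these counts, and the calls over all tested genes moved too. The 8 calls in WT became 5, 8 and 9 without libraries 1, 3 and 4 at 0 mM, 1 without library 1 at 150 mM and 6 without the library labelled WT 150 mM 2. Over all genes, the 3555 calls in WT became 1761, 2217 and 4540 without libraries 1, 3 and 4 at 0 mM. With either WT library at 150 mM left out, that group held 1 library. The 12 calls in C4 became 5, 5 and 4 without each library at 0 mM and 8, 2 and 6 without each at 150 mM. The 2592 calls over all genes in C4 became 1441, 1809 and 1360, and 1984, 1310 and 1454, in the same order. The 7 calls in B2 became 2, 7 and 4 without each library at 0 mM and 11, 1 and 1 without each at 150 mM. The 3471 calls over all genes in B2 became 1843, 2726 and 1299, and 5728, 703 and 1174, in the same order. The genes tested behind these counts over all genes numbered 21326 to 21367. In WT, EXPA1, EXPA15 and EXPB3 lost their calls without library 1 at 0 mM, EXPA1 lost its call and EXPA9 gained one without library 3, EXPA15 and EXPB3 lost theirs without the library labelled WT 150 mM 2, and EXPA16 alone was left without WT 150 mM library 1. In C4, EXPA1 and EXPA16 were called under each omission. EXPA3, EXPB3 and EXLA1 were the others left without C4 0 mM library 1, EXLA1, EXLA3 and EXLB1 without library 2, and EXPA11 and EXLA2 without library 3. At 150 mM, all 3 falls were lost without each library of C4. Library 1 took the call of EXLB1, library 3 those of EXPA3, EXPA8 and EXLB1, and library 2 every rise but those of EXPA1 and EXPA16. EXPB1 in C4 was also lost without WT 0 mM library 3. In B2, EXPA16 and EXPB1 were left without library 1 at 0 mM, EXLA3 lost its call and EXLA1 gained one without library 2, EXPA12, EXPA15, EXPA16 and EXPB3 were left without the library labelled B2 0 mM 3, and EXPA16 alone without library 2 or 3 at 150 mM. Without B2 150 mM library 1, EXPA1, EXPA8, EXLA1 and EXLA2 gained a call in B2.

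No member of the family was called between the lines and WT in the full set of libraries. In C4 against WT and in B2 against WT, at 0 mM and at 150 mM, edgeR called 0 of the 23 genes, and 0% of all tested genes. ANNAT3 was among the genes not called, although at 150 mM it stood at 0.458 to 1.11 CPM in B2 and at 177 and 76 CPM in WT. A missed threshold in these comparisons thus does not show equal levels. At an unadjusted edgeR p under 0.05 there were 3 and 0 of the 23 members at 0 mM and 2 and 7 at 150 mM. Of all 21367 genes, 868, 315, 1377 and 2154 passed, in the same order. DESeq2 also called 0 members in each of these comparisons, and 7, 0, 57 and 27 genes in all. Both comparisons at 0 mM share the WT libraries at 0 mM, and both at 150 mM share those at 150 mM. The 7 members in B2 at 150 mM were EXPA3, EXPA9, EXPA16, EXPA17 and the 3 EXLA genes, each lower than in WT. For EXPA16 the difference was -1.25 ± 0.48 (adjusted p = 0.445), for EXLA3 -1.003 ± 0.40 (adjusted p = 0.456), for EXLA1 -0.89 ± 0.29 and for EXLA2 -0.81 ± 0.29 (adjusted p = 0.438 for both). C4 stood between WT and B2 for EXLA1 and EXLA2 at 150 mM, at -0.54 ± 0.29 and -0.45 ± 0.29 against WT, and neither passed (adjusted p = 0.810 and 0.841). Without both libraries that went against their labels, EXPA16 alone was called in B2 against WT at 150 mM, at -1.82 ± 0.44 (adjusted p = 0.0435). WT at 150 mM then had 1 library, WT 150 mM library 1, which held the highest EXPA16, EXPA3 and EXLA values of all 17, and that lone library is assumed to vary like those of the other groups.

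The salt responses of the lines were also compared with that of WT directly, as an interaction. EdgeR called 0 of 23 members and 0% of all genes for either line, with 2 members each and 775 and 967 genes in all at an unadjusted p under 0.05, and DESeq2 called 0 members and 6 and 1 genes. The response of EXLA3 was smaller in B2 than in WT by 1.36 ± 0.55 on the log2 scale (-1.36, adjusted p = 0.916), and that of EXPA3 by 1.29 ± 0.52 (-1.29, adjusted p = 0.916). In C4 the response of EXPA16 differed from that in WT by -1.47 ± 0.68 and that of EXPA9 by -0.79 ± 0.33 (adjusted p = 1.00 for both). With WT at 150 mM resting on 2 libraries, the SE of these differences was 0.21 to 2.4 over the 23 genes, so a p that misses the threshold does not show equal responses.

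Another family of wall-loosening genes mostly fell. Of all tested genes, 20.5% fell and 21.5% rose over the genotypes, which are the shares to set beside the counts of the lists below. Of 19 xyloglucan endotransglucosylase/hydrolase (XTH) genes, which cut and rejoin the xyloglucan that tethers cellulose, 14 fell and 1 rose over the genotypes. XTH13 fell by 2.099 ± 0.26 and XTH12 by 1.93 ± 0.32 on the log2 scale (edgeR adjusted p = 3.09e-05 and 0.0003), and XTH19 rose by 0.49 ± 0.12 (adjusted p = 0.00358). The summed XTH level was 792 to 1203 CPM at 0 mM and 517 to 759 CPM at 150 mM, without overlap. Among 11 tested genes of the proton pumps and their regulators, on which acid growth depends, AHA7 fell by 1.20 ± 0.18 (adjusted p = 0.000124), while PP2C-D2 and PP2C-D6, phosphatases that hold the pumps inactive, rose by 0.18 ± 0.062 and 0.32 ± 0.066 (adjusted p = 0.0244 and 0.00115). The main root pumps AHA1 and AHA2 changed by 0.03 ± 0.094 and -0.32 ± 0.17 and did not pass (adjusted p = 0.837 and 0.148). Of 7 genes of the RALF peptides, which raise the pH of the wall, and their receptors, RALF23 rose and RALF22, RALF33 and THE1 fell. Of 6 genes of primary wall cellulose synthesis COB fell, and of 10 growth regulators PIF4 rose and BZR1 fell.

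The root hair pair EXPA7 and EXPA18 also fell. Over the genotypes EXPA18 fell by 1.20 ± 0.11 and EXPA7 by 0.32 ± 0.11 on the log2 scale (edgeR adjusted p = 2.32e-06 and 0.0259). 5 of 6 root hair markers, which include this pair, fell and 0 rose, and their summed level was 249.8 to 426 CPM at 0 mM and 102 to 196 CPM at 150 mM. 4 of 6 root tissue markers and 3 of 6 markers of dividing cells fell and 0 rose, 1 of 5 lateral root primordium genes fell, and 0 of 3 root cap and 0 of 6 xylem genes were called by edgeR in the mean of the genotypes. The summed root tissue markers lay at 8698 to 13760 CPM at 0 mM and at 6954 to 10970 CPM at 150 mM. What part such shifts in tissue make-up have in the changes of the expansins was not tested.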

How the data were processed

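Raw counts per gene were made by the authors with featureCounts 2.0.3 on exons of Araport11 genes, with strand setting 2 and a mapping quality of at least 10, per the file headers. Reads of a pair were counted singly and reads that fit several places were not counted under these settings. TAIR10, FastQC 0.12.1, fastp and STAR 2.7.11a are listed in the submitters' processing notes. The 17 libraries held 54233853 to 91527683 counts. edgeR 4.0.16 (R 4.3.3) fitted 1 mean per group after TMM scaling and its filter on low counts, with a robust two-sided quasi-likelihood test and Benjamini-Hochberg adjustment over 21367 genes at 0.05. 17 genes that differed between the near-identical columns were left out. SE is the log2 fold change over the square root of F, and CPM uses TMM-scaled library sizes. The procedure was tested on simulated data. Gene length, deposited beside the counts, served for levels only. Gene spans equalled those of RefSeq TAIR10.1 for 99.7% of genes, and sequences and coding identities (Biopython 1.88) came from that genome. Alternatives were DESeq2 1.42.0, its size factors, no filter, only the compared groups, the near-identical column kept, and left-out libraries. Members, gene lists and motifs were chosen with earlier results of these data known. Genes that averaged 1 CPM or more, or had a call, are described singly, with each library's value where a genotype had a call.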

Additional observations from a re-analysis of the deposited data

How the results depend on the processing

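The full fit called 8 expansin genes under salt in WT, 12 in C4, 7 in B2 and 17 in the mean of the genotypes, and 0 between lines and WT or between their responses. With DESeq2's size factors, no filter on low counts, the DESeq2 test and the near-identical column kept as a library, the salt counts were 8 to 12 in WT, 12 in C4, 6 to 10 in B2 and 17 to 18 in the mean, and the other counts stayed at 0. Over all genes these settings called 3450 to 5171 in WT and 2492 to 3559 in C4. In B2 they called 3338 to 4754 and in the mean 8874 to 9793. DESeq2 called EXPA6, EXPB1 and EXLB1 in WT and EXLA1, EXLA2 and EXLB1 in B2, where the full fit did not. Fitting only the compared groups gave 3 in WT, with fewer samples for the spread, 14 in C4 and 5 in B2. Those fits called 992 of 20762, 3530 of 20568 and 2532 of 20537 genes in all. The full fit called 3555, 2592 and 3471 of 21367. Without the library labelled WT 150 mM 2 and that labelled B2 0 mM 3 together, 1 gene, EXPA16, was called in B2 against WT at 150 mM, where the cause was not tested. Leaving out each library in turn gave 1 to 9 calls in WT, 2 to 12 in C4, 1 to 11 in B2, 15 to 18 in the mean and 0 in each other comparison. Over all genes these omissions gave 1310 to 2951 calls in C4 and 703 to 5728 in B2. No log2 fold change of a called gene changed sign in any of these alternatives. No paired analysis was possible because the labels give the groups no shared replicate numbers. Depth limits the genes at or near 0 and EXPA5, EXPA12 and EXPB2.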
